A study of Saccharomyces cerevisiae with 17 samples.

Results

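Meiosis and sporulation genes of the yeast Saccharomyces cerevisiae were followed in RNA-seq libraries of strains that were growing by mitosis. The list was given by name: 38 genes, all of them found among the 7125 named features of the table of 17 libraries. It holds 28 early genes, 8 middle or later genes (NDT80, SPS1, SMK1, SPR3, SPS2, SPS4, DIT1 and DIT2), the mitotically expressed repressor UME6, and SPO1, which was put in neither class. By role, 6 encode regulators, 5 act in the formation of meiotic DNA breaks, 6 in strand exchange, 4 on the chromosome axis, 6 in synapsis and crossing over, 4 elsewhere in meiosis, and 7 in spore formation.

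All libraries were of the BY4741 background: haploid cells, mating type a, unable to make histidine, leucine, methionine and uracil. Every group, controls and mutants, carried those auxotrophies. Cells grown in synthetic medium with 7.2 mM potassium phosphate were washed and held for 60 min with 7.2 mM or with 0 mM phosphate, and RNA was sequenced with a strand-marking kit. Experiment 1 had 3 libraries of BY4741 at 7.2 mM, 3 at 0 mM, 2 of a deletion of SPL2 (a regulator of phosphate uptake) at 7.2 mM, 3 of that deletion at 0 mM, and 1 of a deletion of BMH1, which encodes a 14-3-3 protein, at 7.2 mM. Experiment 2 had 1 BY4741 library, named B, and 2 libraries, C and D, of a deletion of RRP6, all at 7.2 mM. Experiment 3 had 1 BY4741 library, A-1, and 1 library, A-3, of BY4741 lacking block P of the SPL2 promoter (ΔP), both at 7.2 mM. The study describes its replicates as independent cultures. Its text and its labels differ on which spl2 condition had 3 cultures, and the labels were followed here.

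In diploid yeast, starvation switches on IME1, whose product turns the repressor Ume6, bound at the promoter element URS1, into an activator of early genes for DNA breaks, strand exchange and chromosome pairing. Ndt80 then activates middle genes through the middle sporulation element (MSE), among them genes for spore walls. A haploid strain with nutrients does not enter meiosis and keeps these genes low. Rrp6 is the nuclear 3′ to 5′ exonuclease of the RNA exosome, which degrades many nuclear transcripts, transcripts of meiotic genes among them.

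The promoter elements are shown for members on which the results below turn. The 250 bases before the start codon were read from the RefSeq assembly R64 with its own annotation, to which all 38 members matched; the build used for the deposited values is not given in the sources used here. The core letters of URS1, GGCGGC or its reverse complement GCCGCC, stood in 18 of 28 early members (64.3%), in 1 of 8 middle members and in 250 of the 6001 promoters of the annotation (4.17%). Each window below has 30 bases, 5′ to 3′ on the strand of the gene, with the URS1 core in capitals.
MEI4: tatatattgctgGGCGGCtaaatgtttccg
HOP2: gattatgtcctcGGCGGCtaaattttccat
MEK1: cggctaaatttcGGCGGCtatttcattcat
MER1: gatcgcattttaGCCGCCgacagtgttaat
REC114: cgttacaaggtgGGCGGCtaacttataaaa
ZIP1: taaaataccctcGGCGGCtaaatttttaga
SPO16: gcgtgaaaagtgGGCGGCtaaaaccgagaa
SPO22: aatacaaacttcGGCGGCtaattgcaaata
Of the windows printed, 7 continue from GGCGGC into TA, whereas that of MER1 holds the core on the other strand with TA before it. The 8 letters GGCGGCTA, on either strand, were present for 17 of the 21 core matches in members, in 16 members, and in 65 promoters of the annotation (1.08%). The windows lie at chrV:239853-239882 for MEI4 (minus strand), chrVII:435484-435513 for HOP2 (plus), chrXV:996628-996657 for MEK1 (minus) and chrXIV:250809-250838 for MER1 (plus). Those of REC114, ZIP1, SPO16 and SPO22 are chrXIII:536103-536132 (plus), chrIV:1032404-1032433 (plus), chrVIII:402753-402782 (minus) and chrIX:226061-226090 (minus). Over the 20 members with a core, the nearest began between 20 bases (ZIP1) and 232 bases (IME4) before the start codon, with a median of 117.

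The core letters of the MSE, CACAAA or TTTGTG, which do not overlap URS1, stood in 5 of 8 middle members (62.5%), in 3 of 28 early members and in 989 of 6001 promoters (16.5%). Of those 5, 4 are shown, with the MSE core in capitals.
NDT80: attgccctccatTTTGTGtcacctatttaa
SMK1: cggcgccactaaTTTGTGacacttgaacag
SPS2: caaaaaaaatatTTTGTGgcattacttaga
SPS4: attgacgcgcgcCACAAAaacgtatcattg
Their positions are chrVIII:356464-356493 for NDT80 (plus), chrXVI:666189-666218 for SMK1 (plus), chrIV:1485316-1485345 for SPS2 (minus) and chrXV:903047-903076 for SPS4 (minus). SPR3, DIT1 and DIT2 had no match to these letters in the window, and neither core was found for those 3 or for IME2, RIM4, SPO11, REC102, MND1, ZIP2 or MSH4.

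Depth was 17456154 to 44667485 reads per library, recovered from the deposited RPM, each read count scaled to its library's total, and 3 reads correspond to between 0.0672 and 0.172 RPM. RRP6 itself stood at 57.8 RPM in library B and was listed with 0 reads in C as in D. Genes specific to mating type a summed to 1074 to 2256 RPM (7 genes), and genes specific to mating type alpha to 29.9 to 58.0 RPM (4 genes). Of the latter, the alpha pheromone gene MF(ALPHA)1 had 0.134 to 0.565 RPM, STE3 3.56 to 11.9 RPM and SAG1 17.5 to 44.15 RPM. MF(ALPHA)2 had 6.07 to 8.90 RPM in experiments 1 and 2 and 0.0672 to 0.0820 RPM in experiment 3.

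All 38 members were detected in all 17 libraries, the lowest count being 1 read, for MEI5 in library A-3. Their levels were low. Per kilobase of coding length, the median member stood at 5.64 RPM per kilobase in BY4741 at 7.2 mM of experiment 1, against 36.2 for the 5975 features with a coding length. All 38 lay under that median and 18 under the tenth percentile of those features, 5.16 RPM per kilobase. The order per kilobase began with NDJ1, which encodes a protein that attaches telomeres to the nuclear envelope, at 26.3 ± 2.66 RPM per kilobase (SD, n = 3), IME4, an mRNA adenosine methyltransferase, at 26.2 ± 0.958, and SMK1, a MAP kinase of spore wall assembly, at 25.7 ± 1.34. These 3 neighbours in the order did not differ beyond their spread. SPO16, a partner of Zip2 in synapsis, at 21.3 ± 3.04 and UME6 at 21.1 ± 1.79 followed and overlapped too. At the low end were REC8, the meiotic cohesin subunit, at 0.981 ± 0.0107, SAE3 at 0.948 ± 0.500 and MEI5 at 0.535 ± 0.295 RPM per kilobase, the last 2 encoding partners that help load the recombinase Dmc1.

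For several members this order held only within experiments 1 and 2. IME4 had 46.1, 49.2 and 46.3 RPM in BY4741 at 7.2 mM of experiment 1 and 28.9 RPM in library B, but 0.291 RPM in library A-1 and 0.109 RPM in library A-3. SMK1 had 30.1, 31.4 and 28.3 RPM in experiment 1 and 20.8 RPM in B, against 0.627 and 0.355 RPM in A-1 and A-3. MER1, which encodes a splicing activator of meiotic introns, had 10.8, 8.61 and 9.60 RPM, then 10.1 RPM in B, against 0.0896 and 0.164 RPM in experiment 3. Neither library of experiment 3 came near the other libraries for these genes.
The ratio of the mean of BY4741 in experiment 1 to library A-1 was 162 for IME4, 108 for MER1, 47.8 for SMK1 and 41.2 for SPS2, a spore wall gene. It was 23.7 for REC114, a break formation gene, 19.4 for the axis kinase gene MEK1, 11.8 for the meiosis I regulator SPO13, 6.32 for the RNA-binding repressor RIM4, 5.52 for the synapsis gene ZIP2 and 4.12 for REC102, a partner of SPO11. In contrast, NDJ1 (27.8 against 25.2 RPM), ZIP1 (19.5 against 20.3 RPM), MEI4 (3.73 against 4.01 RPM) and SPR3 (1.74 against 1.66 RPM) had nearly the same level in both.
Counting members that reached 1 RPM in experiment 1, 10 of 36 (27.8%) were at least 4-fold lower in A-1, 8 of 26 early and 2 of 8 middle, against 413 of 5978 features (6.91%). At 2-fold the counts were 18 of 36 members (50%) and 10.6% of features, with 0 members 2-fold higher. Library B of experiment 2 had 0 members that differed 2-fold from experiment 1. These ratios rest on 1 BY4741 library of experiment 3 and were not tested.

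**Figure D1:**
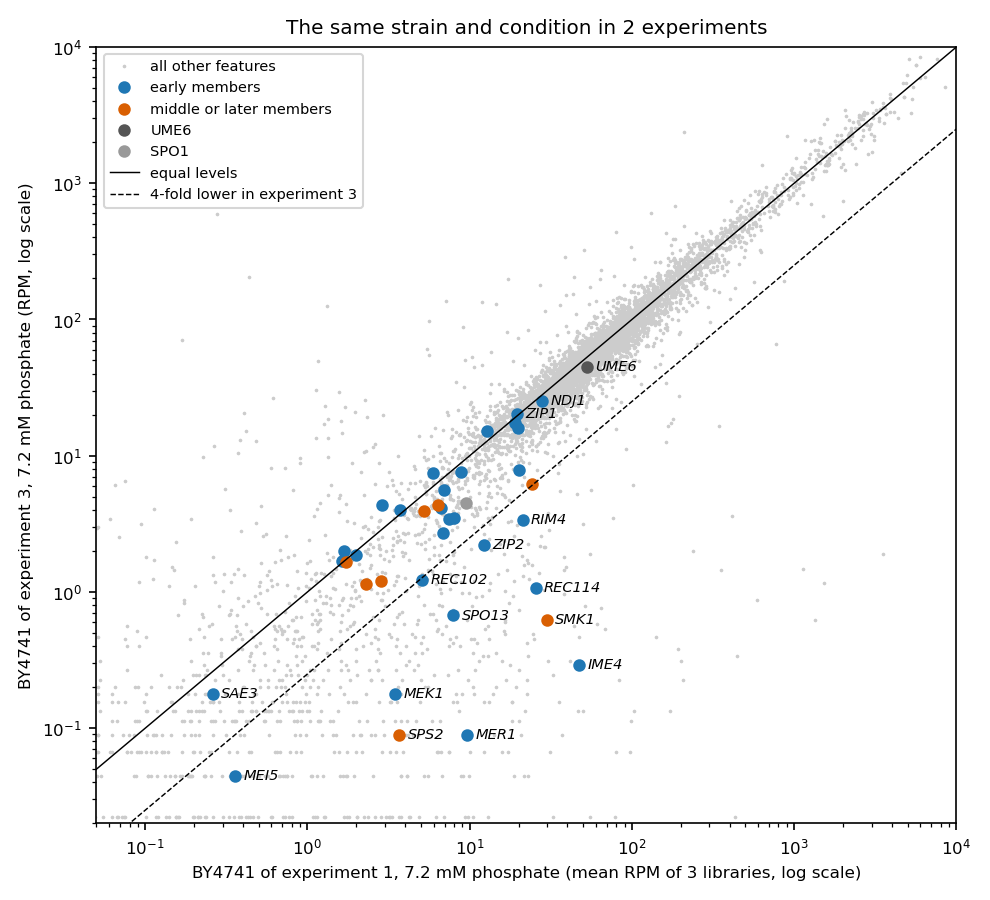
Level of each feature in BY4741 at 7.2 mM phosphate in library A-1 of experiment 3 (RPM, y axis) against the mean of 3 libraries of experiment 1 (RPM, x axis), both on log scales. Blue points are early members, orange points middle or later members, dark grey UME6, mid grey SPO1 and light grey all other features above 0; 10 members with at least 1 RPM in experiment 1 lie under the dashed line of 4-fold lower levels, IME4 (47.2 against 0.291 RPM) farthest of them.

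The annotation of both strands was set beside these ratios. Of 31 features with an annotated gene on the opposite strand over at least 50% of their length, 21 (67.7%) were at least 4-fold lower in A-1, against 162 of 5579 features with no annotated gene opposite (2.9%). Where the overlap was under 50%, 6 of 58 features were lower (10.3%), and of 310 features that did not match the annotation 224 were (72.3%), out of the 413 in all. Of the members, IME4 lies wholly (100%) opposite the antisense RNA RME2, and ZIP2 lies opposite the antisense RNA RME3 over 90.1% of its length. The annotation describes RME2 as expressed in haploids and RME3 as expressed in haploid cells under conditions that induce sporulation, and neither is a feature of the table. The other 8 members with lower levels, such as MER1 and SMK1, have no annotated gene opposite them. Whether counting used the strand is not given in the sources used here, so reads of a gene and of a transcript antisense to it cannot be told apart, and the part of antisense reads in these levels was not tested.

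Libraries of the rrp6 deletion had higher levels of a large share of the members. In bulk RNA, more transcript per cell and more cells with the transcript cannot be told apart. Nor can reads of a gene and of a transcript antisense to it, as whether counting used the strand is not given. Of the members opposite an annotated antisense RNA, ZIP2 was called higher and IME4 lower. The part of antisense reads in these changes was not tested. Of 37 members tested against library B, 17 were higher and 5 lower at an adjusted p under 0.05 (limma on log2(RPM + 1), Benjamini-Hochberg over 6039 features). Among all features tested, 15.9% were higher and 24.6% lower. The members' shares were 45.9% and 13.5%, and their median log2 fold change was 0.23, beside -0.08 for all features. The members were chosen with earlier results of these data known, so these shares are a description and not an independent test. With a log2 change of at least 1 besides, 11 members were higher and 2 lower, against 4.34% and 0.695% of all features. By phase, 13 of 27 early members tested were higher and 4 lower, and of 8 middle members 4 were higher and 0 lower. SAE3, under 0.5 RPM in all 3 libraries, was not tested, and MEI5 was tested only because it reached 1 RPM in the deletion, so its call follows in part from the filter. The summed level of the 28 early members was 274 RPM in B, 412 RPM in C and 394 RPM in D, and that of the 8 middle members 66.1, 108 and 113 RPM.

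Genes of break formation held the largest single rise on the log2(RPM + 1) scale. MEI4, whose product forms a complex with Rec114 needed for DNA breaks, had 2.81 RPM in B and 38.8 and 36.3 RPM in C and D, a ratio of means of 13.4. In the 14 other libraries of the series it lay between 1.65 and 6.12 RPM, so both deletion libraries stood far above all of them. Its log2 fold change was 3.34 ± 0.199 (SE), with an adjusted p of 7.27e-10 by limma.
SPO11, which encodes the enzyme that cuts DNA, rose from 7.58 RPM to 19.8 and 17.2 RPM (log2 1.18 ± 0.152, adjusted p = 1.06e-05 by limma). REC102 rose from 5.81 RPM to 15.1 RPM in each deletion library (log2 1.24 ± 0.144, adjusted p = 3.21e-06 by limma); it is among the members that were over 4-fold lower in experiment 3. REC104, with 7.08 RPM in B and 6.87 and 6.30 RPM in the deletion, and REC114, with 26.8 against 33.7 and 29.7 RPM, did not pass the test. Of the 5 genes of this role, 3 rose and 0 fell.

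On the chromosome axis, RED1, a scaffold protein of meiotic chromosomes, rose from 11.3 RPM to 50.6 and 47.9 RPM (log2 2.03 ± 0.127, adjusted p = 1.31e-09 by limma), a ratio of 4.36. Elsewhere in the series RED1 lay at 13.9 to 25.7 RPM, above library B but below the deletion. MEK1, the kinase that acts with Red1 and Hop1, rose from 2.21 RPM to 5.91 and 5.44 RPM (log2 1.06 ± 0.154, adjusted p = 4.33e-05 by limma), and it too was far lower in experiment 3, at 0.179 RPM in A-1. REC8 rose from 2.00 to 3.41 and 3.55 RPM (log2 0.58, lost without library D). HOP1, the partner of Red1, was at 6.82 RPM in B and 5.38 and 5.04 RPM in the deletion and did not pass.

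Among strand exchange genes, HOP2 and MND1, which encode the 2 subunits of 1 accessory complex of Dmc1, rose together. HOP2 went from 3.37 RPM to 11.2 and 9.62 RPM (log2 1.38 ± 0.184, adjusted p = 1.59e-05 by limma). MND1 went from 1.30 RPM to 4.90 and 3.78 RPM (log2 1.21 ± 0.221, adjusted p = 0.000395 by limma). MEI5 rose from 0.501 RPM to 1.76 and 1.55 RPM. DMC1 itself had 6.92 RPM in B and 8.52 and 7.05 RPM in the deletion, and HED1 1.60 against 1.97 and 1.37 RPM; neither passed.

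Synapsis and crossover genes moved both ways. ZIP1, which encodes a protein of the synaptonemal complex, fell from 16.8 RPM to 6.87 and 6.76 RPM (log2 -1.19 ± 0.118, adjusted p = 5.06e-07 by limma), below its range of 17.7 to 24.8 RPM in the 14 other libraries. SPO16 fell from 16.2 to 11.7 and 12.5 RPM and SPO22, also known as ZIP4, from 19.3 to 14.8 and 15.9 RPM, by 0.39 and 0.31 on the log2 scale. Both calls were lost with no filter and with all BY4741 libraries at 7.2 mM as control (log2 -0.17 and -0.11). That of SPO16 was also lost with those of experiments 1 and 2 as control (log2 -0.14). In BY4741 at 7.2 mM of experiment 1 SPO16 had 10.8 to 14.5 RPM, a range that holds both deletion values. ZIP2 rose from 18.0 to 29.9 and 26.2 RPM (log2 0.61), and MSH4 from 6.01 to 10.3 and 9.97 RPM (log2 0.67). BY4741 at 0 mM had 9.82 to 11.6 RPM of MSH4, a range that holds both deletion values. MSH5, the partner of MSH4, had 15 RPM in B and 13.4 and 11.4 RPM in the deletion and did not pass. The calls of ZIP2, SPO16 and SPO22 were each lost when library C was left out.

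Of the regulators, IME1 rose from 3.71 RPM to 12.5 and 10.8 RPM (log2 1.42 ± 0.156, adjusted p = 1.68e-06 by limma), a ratio of 3.13. Other libraries had 2.70 to 7.41 RPM of IME1, the highest being A-1, so the deletion libraries remained above all of them. NDT80 rose from 24.9 to 33.3 and 35.1 RPM (log2 0.44). BY4741 at 0 mM had 32.8 to 34.1 RPM of NDT80, a range that holds the value of library C. IME4 fell from 28.9 to 19.5 and 24.2 RPM (log2 -0.39), a call lost without library C. That change turned to 0.10 when all BY4741 libraries at 7.2 mM served as the control, A-1 with its 0.291 RPM among them, and was -0.91 with the 4 of experiments 1 and 2. The kinase gene IME2, RIM4 and UME6, at 5.48, 17.9 and 31.6 RPM in B, had 5.49 and 6.19, 17.4 and 16.9, and 25.0 and 30.6 RPM in the deletion and did not pass.

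MER1, NDJ1, SPO13 and SPO1 act elsewhere in meiosis. MER1 rose from 10.1 RPM to 32.4 and 33.9 RPM (log2 1.62 ± 0.158, adjusted p = 3.86e-07 by limma), on a level that was 108-fold lower in experiment 3. SPO1, a homologue of phospholipase B needed at the spindle pole body, showed the largest fall, from 9.72 RPM to 3.57 and 2.98 RPM (log2 -1.33 ± 0.132, adjusted p = 5.06e-07 by limma). NDJ1 and SPO13 did not pass, with 20.3 against 18.7 and 18.5 RPM and 9.46 against 11.0 and 10.5 RPM.

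In spore formation the rise was led by SPR3, which encodes a septin of the membrane that encloses the spore. It had 2.14 RPM in B and 28.3 and 31.3 RPM in the deletion, a ratio of 14.0 and a log2 fold change of 3.29 ± 0.208 (adjusted p = 1.45e-09 by limma). In the other 14 libraries SPR3 did not exceed 3.54 RPM. SPS2 rose from 3.51 RPM to 9.0 and 8.88 RPM (log2 1.14 ± 0.166, adjusted p = 4.48e-05 by limma). Its BY4741 level, again, was over 40-fold lower in experiment 3. DIT2, a cytochrome P450 of dityrosine synthesis, rose from 2.21 to 3.20 and 3.67 RPM (log2 0.47). Its call was lost without library C, without library D, with DESeq2 and with the compared groups alone. Both deletion values lay within the 2.96 to 4.14 RPM of DIT2 in the spl2 deletion at 0 mM. SMK1, SPS1, SPS4 and DIT1 did not pass, with log2 changes between -0.16 and 0.31.

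**Figure D2:**
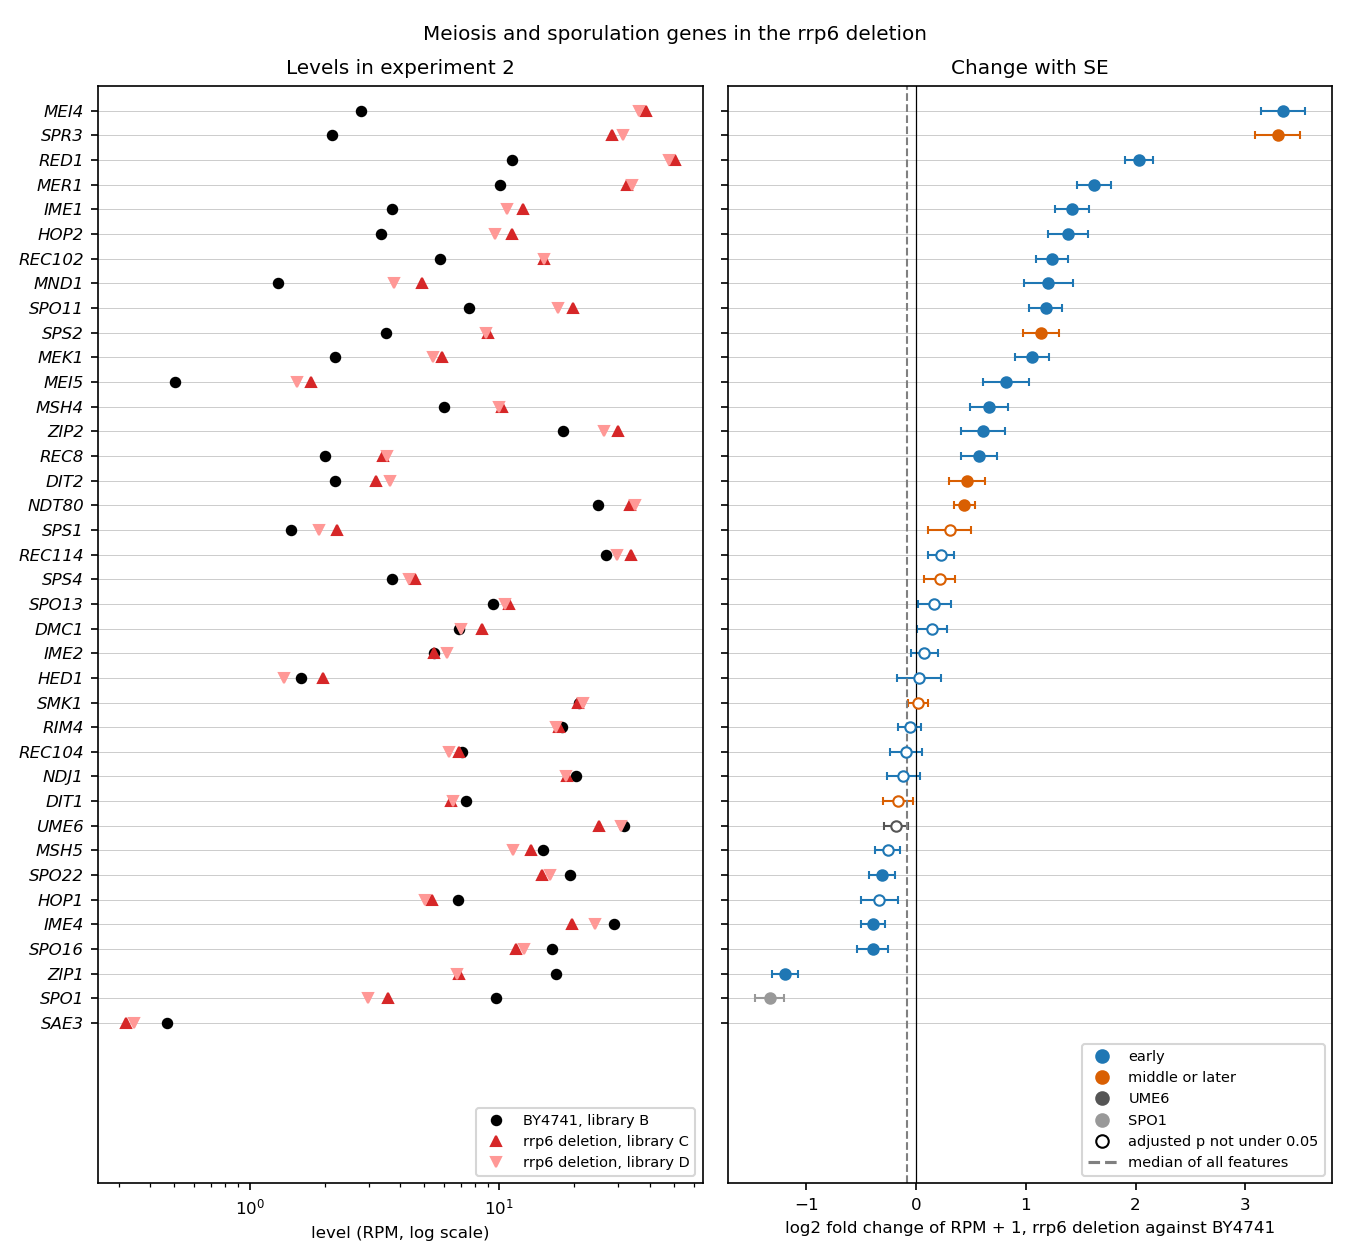
Left, level of each member in library B (BY4741, black circles) and in libraries C and D of the rrp6 deletion (red triangles), in RPM on a log scale. Right, log2 fold change of RPM + 1 with its SE from the limma fit, blue for early, orange for middle or later members, filled where the adjusted p was under 0.05; MEI4 (3.34), SPR3 (3.29) and RED1 (2.03) lead, SPO1 (-1.33) and ZIP1 (-1.19) stand at the other end, and the dashed line marks the median of all features (-0.08).

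Features of the genes that the list did not use were set beside the calls. Of the immediate neighbours of the 17 raised members, 0 of 16 tested upstream were higher and 6 lower. Downstream, 0 of 15 tested were higher and 7 lower. Among all features tested, 15.9% were higher and 24.6% lower. Neighbours of the other members counted 6 higher of 19 upstream and 3 of 21 downstream. These include raised members, DIT2 upstream of DIT1 (log2 0.47) and SPS2 downstream of SPS1 (log2 1.14). The counts are thus not independent of the member calls, and a link between a member's rise and its neighbours was not tested. Introns are present in 9 members, of which 8 were tested, 4 were higher and 2 lower; of 29 members without an intron 13 were higher and 3 lower. Of all 305 features with an intron that were tested, 39 were higher and 37 lower. On the log2(RPM + 1) scale, both the largest rise (MEI4) and the largest fall (SPO1) were in genes with an intron. URS1 core letters stood before 6 of the 17 raised members (35.3%) and 14 of the 21 others (66.7%). Of the 17 raised members, 11 were less than 4-fold lower in experiment 3, 5 were at least 4-fold lower (REC102, MEK1, ZIP2, MER1 and SPS2) and MEI5 was under 1 RPM in experiment 1.

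Other genes of the pathway outside the 38 were counted by list, to be read beside the 15.9% higher and 24.6% lower of all features. The lists were chosen with earlier results of these data known, so their counts are not an independent test of the pattern. Of 27 other middle and late sporulation genes tested, 20 were higher in the rrp6 deletion (74.1%) and 1 lower, with a median log2 fold change of 0.50. Of 11 other early meiotic genes, 5 were higher (45.5%) and 2 lower (18.2%). Of 17 repressors and upstream regulators of meiosis, 0 were higher and 14 lower (82.4%, median log2 -0.32), and of 11 genes of the nuclear exosome and its TRAMP cofactor 4 were higher (36.4%) and 0 lower. Haploid-specific genes counted 0 higher and 1 lower of 8, but 5 lower with TMM scaling, 5 with edgeR and 2 with DESeq2. Genes specific to mating type a counted 0 higher and 3 lower of 7 (42.9%), and 4 lower with each of those alternatives.

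The rrp6 comparison has 1 control library, so its error comes from the spread within the groups of 15 libraries of experiments 1 and 2, and p-values assume that library B varied as they did. Replacing B by the 4 BY4741 libraries at 7.2 mM of experiments 1 and 2, an alternative chosen after the data were seen, gave 19 members higher and 11 lower, against 24.6% and 49.7% of all features.

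The question of phosphate was asked next, in both strains of experiment 1. After 60 min without phosphate, BY4741 had higher levels of 25 of 36 members tested and a lower level of 1, SPS4, in a table where 60.9% of all features were called higher and 6.68% lower. The members' share of 69.4% thus lay close to that background. Their median log2 fold change was 0.31, beside 0.21 for all features. Scaled by TMM, which brings the median of all features to 0.01, 9 members were higher and 2 lower, against 18% and 20.4% of features. By phase, 18 of 26 early and 5 of 8 middle members were higher before that scaling, and 6 and 3 after it. Among those higher were NDT80 (mean 24.3 RPM with and 33.3 RPM without phosphate), REC114 (25.5 and 37.9 RPM), MSH4 (6.96 and 10.5 RPM) and DIT1 (6.4 and 9.4 RPM). The calls of these genes held in each of 13 alternatives. MEI5 and SAE3 were too low to be tested.

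SPO22 stood out among them. It had 19.8, 20.5 and 20.1 RPM with phosphate and 40.4, 41.0 and 36.8 RPM without in BY4741, and 18.5 and 21.2 RPM against 34.2, 39.7 and 42.3 RPM in the spl2 deletion. The groups did not overlap in either strain. The ratio of means was 1.96 in BY4741 (log2 0.93 ± 0.0771, adjusted p = 1.85e-07 by limma) and 1.95 in the spl2 deletion (log2 0.93 ± 0.0862). With TMM scaling the log2 changes were 0.73 and 0.71 and both passed. In experiment 3, at 7.2 mM, SPO22 was lower, at 7.88 and 5.39 RPM. SPO16, whose product works with Zip4, had 12.9, 10.8 and 14.5 RPM with phosphate and 22.6, 21.0 and 19.8 RPM without in BY4741, without overlap (log2 0.70 ± 0.0958, adjusted p = 2.78e-05 by limma). These 2 genes are also among the 5 members called lower in the rrp6 deletion against library B, though that comparison was run at 7.2 mM. Both of those calls were lost with all BY4741 libraries at 7.2 mM as control.

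DMC1, the meiotic recombinase, followed with 7.5, 6.82 and 6.15 RPM against 11.5, 10.8 and 10.5 RPM (log2 0.61 ± 0.0878, adjusted p = 4.02e-05 by limma). SPR3 had 1.80, 1.44 and 1.98 RPM against 3.54, 3.15 and 2.44 RPM (log2 0.56 ± 0.152, adjusted p = 0.00473 by limma). REC8 had 2.02, 2.01 and 1.98 RPM against 4.0, 3.27 and 3.01 RPM (log2 0.55 ± 0.120, adjusted p = 0.00101 by limma). Each of these 3 genes was higher in every library without phosphate than in any with it, and each remained called with TMM scaling, but SPR3 lost its call with edgeR (adjusted p = 0.0517) and DESeq2 (adjusted p = 0.0504). In the spl2 deletion SPR3 had 1.37 and 2.27 RPM with and 2.09, 2.57 and 2.91 RPM without phosphate, and REC8 1.99 and 2.58 against 2.51, 2.70 and 2.99 RPM; both overlapped between the conditions and did not pass. A log2 change of 1 was reached by 0 members and 1.26% of all features.
In the other direction SPS4, a sporulation-specific gene, had 5.07, 5.35 and 5.25 RPM with phosphate and 3.77, 4.37 and 4.82 RPM without (log2 -0.23 ± 0.0966, adjusted p = 0.0450 by limma), and it was lower with TMM scaling too (log2 -0.41); on the RPM scale its call was lost without library 10, 11, 13, 14 or 16. IME1, with 5.37, 6.86 and 5.64 RPM against 6.5, 6.09 and 6.69 RPM, and IME2, with 8.46, 9.40 and 8.61 RPM against 8.41, 8.90 and 9.52 RPM, overlapped between the conditions and did not pass. RED1 and MEI4, raised in the rrp6 deletion, did not pass in BY4741 either, at log2 0.00 and 0.26.

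In the spl2 deletion 20 of 36 members were higher without phosphate and 0 lower, against 57.3% and 8.75% of all features; the members' share was 55.6% and their median log2 change 0.26 beside 0.23. With TMM scaling 2 were higher, SPO22 and DIT1 (a dityrosine synthesis gene), and 1 lower, against 21% and 23.2% of features. Leaving out library 7, which is 1 of the 2 at 7.2 mM, gave 11 calls. Leaving out library 19 gave 13 and library 20 gave 12. After SPO22 the largest rises were those of MEI4, from 2.70 and 3.51 RPM to 3.83, 5.69 and 6.12 RPM (log2 0.58 ± 0.160, adjusted p = 0.00482 by limma), DIT1 (log2 0.49 ± 0.107), DMC1 (log2 0.43 ± 0.0983) and ZIP2 (log2 0.41 ± 0.153). The libraries of the 2 conditions overlapped for ZIP2, and its call, like that of MEI4, was lost without library 7; ZIP2's was lost without library 19 or 20 too.
The difference between the responses of the 2 strains passed for 1 member, RED1, whose change was larger in the spl2 deletion, as was that of 6.8% of features. RED1 had 18.5, 21.1 and 19.6 RPM with and 19.1, 18.6 and 21.5 RPM without phosphate in BY4741, and 16.0 and 18.0 RPM with and 20.3, 22.9 and 25.7 RPM without in the spl2 deletion. The groups overlapped in BY4741 and not in the deletion, and the difference of the log2 changes was 0.40 ± 0.131 (adjusted p = 0.0496 by limma). For SPO22 the 2 strains' changes of 0.93 were equal to 2 decimals.

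**Figure D3:**
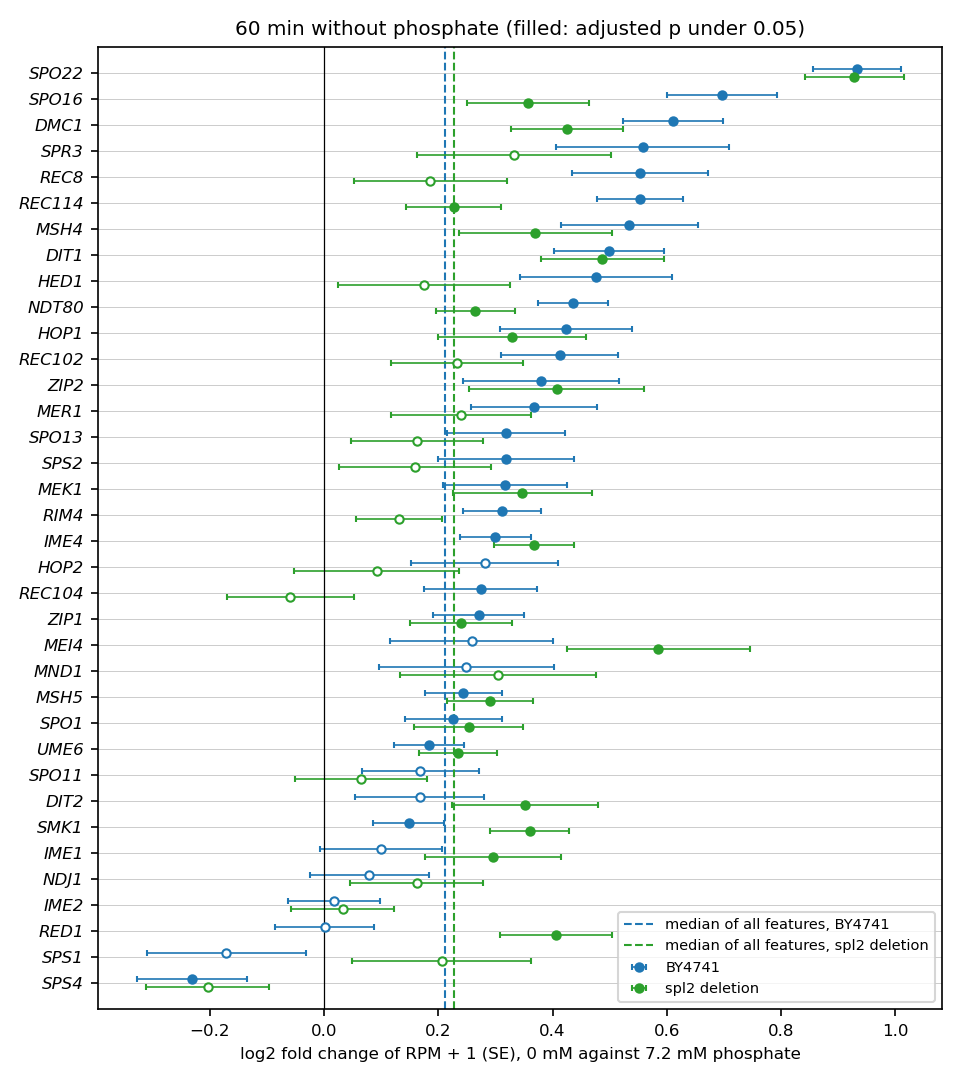
Log2 fold change of RPM + 1 with its SE for 36 members after 60 min at 0 mM against 7.2 mM phosphate, in BY4741 (blue, 3 libraries each) and the spl2 deletion (green, 3 against 2 libraries), filled where the adjusted p was under 0.05. Dashed lines mark the medians of all features (0.21 and 0.23), which lie within the bulk of the members; SPO22 (0.93 in both strains) is farthest above them and SPS4 farthest below in BY4741.

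Between the strains at 7.2 mM, 0 members differed (limma; 0 also by edgeR and DESeq2), where 0.5% of features did. At 0 mM REC104 was lower in the spl2 deletion, with 5.74, 7.39 and 5.66 RPM against 9.23, 7.89 and 7.65 RPM in BY4741 (log2 -0.35 ± 0.0989, adjusted p = 0.0292 by limma), and NDT80 with 26.7, 28.1 and 31.3 RPM against 34.1, 32.9 and 32.8 RPM (log2 -0.21 ± 0.0620, adjusted p = 0.0374 by limma). Neither pair of groups overlapped, and 7.44% of features were lower there. The call of NDT80 was lost without library 14, 16 or 17 of BY4741 or library 12 or 19 of the deletion. That of REC104 was lost without library 14 or 16 of BY4741 or library 12 or 20 of the deletion. Both calls were lost with the compared groups alone, and that of NDT80 with no filter too.

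The bmh1 deletion had 1 library, taken to vary like the other groups. Against BY4741 at 7.2 mM 14 of 36 members were lower and 2 higher, where 48.8% of features were lower and 15.2% higher and the median of all features was -0.22. With TMM scaling, 7 members were lower and 8 higher, against 28.3% and 29.7% of features. NDJ1 fell the most, with 10.0 RPM against 26.0, 31.1 and 26.5 RPM (log2 -1.38 ± 0.147, adjusted p = 4.26e-06 by limma; log2 -1.18 with TMM scaling). IME1 had 2.70 RPM against 5.37, 6.86 and 5.64 RPM (log2 -0.90 ± 0.152), MEI4 1.65 against 4.34, 3.45 and 3.40 RPM (log2 -0.83 ± 0.204) and MSH5 10.5 against 18.8, 20.2 and 17.8 RPM (log2 -0.80 ± 0.0955). UME6 was lower as well, at 31.2 against 52.7, 57.5 and 48.5 RPM, and SPS4 at 2.64 against 5.07, 5.35 and 5.25 RPM; all 6 remained lower with TMM scaling. MER1 (14.2 against 10.8, 8.61 and 9.60 RPM) and SPO16 (16.6 against 12.9, 10.8 and 14.5 RPM) were higher under both scalings, SPO16 not without library 10. UME6 was also at 31.6 RPM in library B and in library A-3, and at 25.0 and 30.6 RPM in the rrp6 deletion. Its level in the bmh1 deletion thus lay within the range of libraries of the other experiments, though below every BY4741 library.

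**Figure D4:**
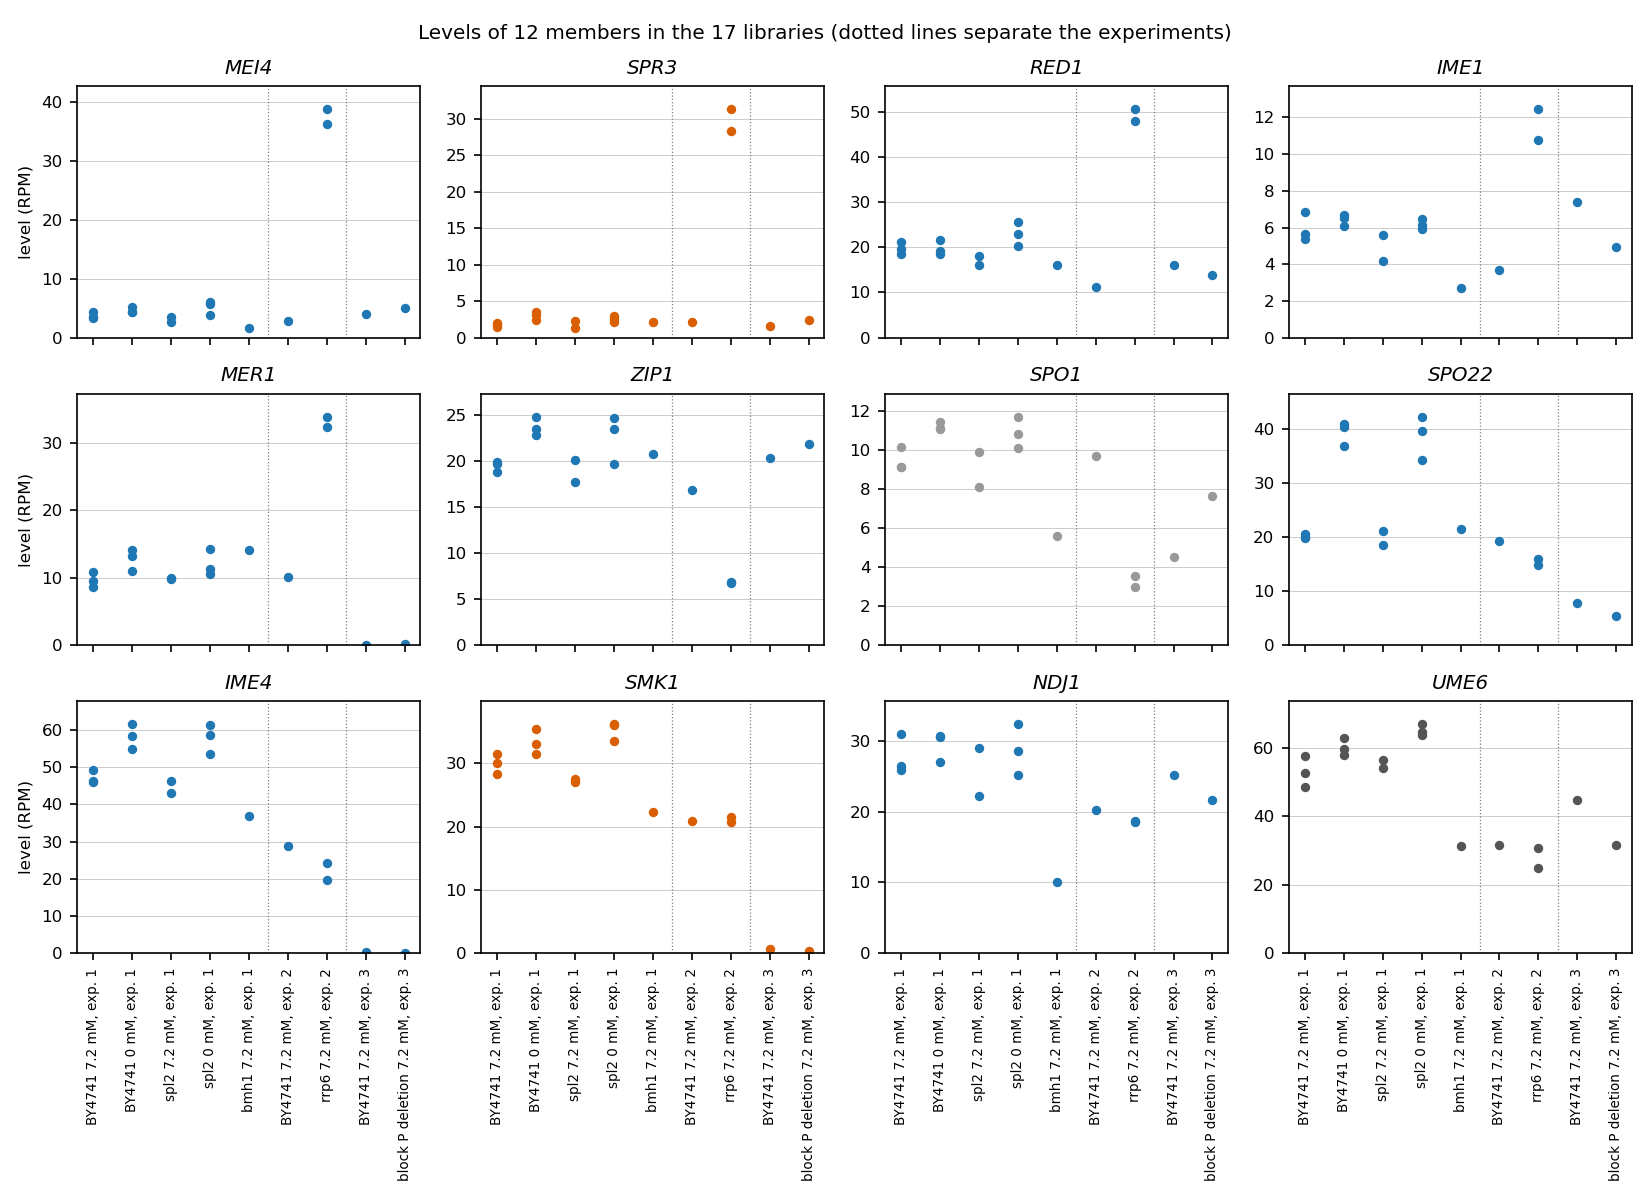
Levels in RPM of 12 members in the 17 libraries, 1 point per library, by strain, phosphate concentration and experiment, on linear axes from 0. MEI4, SPR3, RED1, IME1 and MER1 are highest in the rrp6 deletion and ZIP1 and SPO1 lowest there, SPO22 is highest at 0 mM in both strains, and IME4, SMK1 and MER1 lie near 0 in both libraries of experiment 3.

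The pair of libraries of experiment 3, with and without block P, has no replicates and was not tested. Among 30 members with at least 1 RPM, 0 differed 2-fold, against 1.31% of 5785 features. The widest ratios in members with more than 100 reads in each library were 1.69 for SPO1 (4.52 RPM in BY4741, 7.63 RPM in ΔP; 95% interval 1.40 to 2.03) and 0.668 for IME1 (7.41 and 4.95 RPM; 0.554 to 0.803), intervals that cover counting error only. Members that were far lower in experiment 3 rest on few reads here, such as IME4 with 13 and 4 reads.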

How the data were processed

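RNA from 17 yeast cultures was sequenced after a stranded library preparation, per the labels' protocols. Per the file headers, the authors deposited reads per 1e6 (RPM) for each feature and library; which aligner, counter and build were used, and whether strand was, is not stated in the labels or headers used here. Each value was a whole multiple of the value of 1 read (100% of values, tolerance 0.001 reads), so read counts were recovered; 1 unnamed row was left out. A feature was tested where the number of libraries at 1 RPM or more was no smaller than the size of the smaller group, and no smaller than 2, using limma 3.58.1 (R 4.3.3) on log2(RPM + 1) with an intensity trend. P-values were adjusted by Benjamini-Hochberg over all tested features, with a threshold of 0.05. Experiment 1 was fitted on 12 libraries (7 residual degrees of freedom) and the rrp6 deletion on the 15 of experiments 1 and 2 (8), with its contrast inside experiment 2. Alternatives were a pseudocount of 0.1, no filter or 0.2 RPM, TMM scaling, edgeR 4.0.16 and DESeq2 1.42.0 on the recovered counts, the compared groups alone, other controls and leaving out libraries; the fits were tested on simulated data. Names and coordinates matched 6145 of 7125 features in R64. All 38 members are accounted for, with at most 12 members of the rrp6 comparison and 5 in each direction of a phosphate comparison in full; the members and lists were chosen with earlier results of these data known. P-values measure only the spread between these libraries.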

Additional observations from a re-analysis of the deposited data

Results flagged for a closer look

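RED1, an axis gene, was the 1 member whose phosphate response differed between the strains by the test of the difference itself: its log2 change at 0 mM against 7.2 mM was 0.40 larger in the spl2 deletion than in BY4741 (SE 0.131, adjusted p = 0.0496 by limma). It was no longer called with no filter on low values, with a filter of 0.2 RPM, or without library 10, 13, 14 or 16 of BY4741 or library 7, 19 or 20 of the deletion. No group held more than 3 libraries, so none was large enough to test for a library far from the others.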

How the results depend on the processing

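Members called in the rrp6 deletion numbered 22, and 20 to 30 across the alternative tools, filters, scalings and controls; leaving out a deletion library gave 17 to 20. In BY4741 at 0 mM against 7.2 mM the 26 members called became 11 with TMM scaling, 9 with edgeR and 9 with DESeq2, and 19 to 22 without 1 library. In the spl2 deletion 20 became 3 with TMM scaling, 5 with edgeR, 3 with DESeq2 and 13 with the compared groups alone, and 11 to 21 without 1 library. These scalings moved the median of all features from 0.21 and 0.23 to about 0.01 (log2), relative to which fewer members rose. For the difference of the responses, 1 member became 0 with no filter and 0 with a filter of 0.2 RPM, 2 with each of TMM scaling, edgeR and DESeq2, and 0 to 2 without 1 library. Between the strains at 0 mM 2 members became 1 with no filter, 1 other member with the compared groups alone, and 0 to 2 without 1 library. At 7.2 mM 0 were called under every alternative run, and the bmh1 deletion gave 13 to 17. Directions reversed 7 times: in BY4741, UME6 changed from 0.18 to -0.026 with TMM scaling, -0.028 with edgeR and -0.029 with DESeq2, and SMK1 from 0.15 to -0.058 with each; in the rrp6 deletion IME4 turned to 0.0998 with all BY4741 libraries at 7.2 mM as control, among them that of experiment 3. The causes of these and of the other changes were not tested. Among single members, the rrp6 calls were the same in 225 of 240 values, those of BY4741 in 252 of 338 and those of the spl2 deletion in 150 of 240. The block P pair had a median log2 ratio of 0.10, and 0.13 with a pseudocount of 0.1. No paired analysis was possible because no 2 groups share a replicate number in the labels. Depth limits SAE3 and MEI5, and members with a few reads in experiment 3.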
